A study of Mus musculus with 4 samples.

Results

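Transcript levels of 42 genes of DNA replication and mitosis were examined in mouse macrophages grown from bone marrow. The genes were listed by name, and each was read through its brightest probe set, the one with the highest mean over the 4 arrays among probe sets whose annotation names that gene alone. Of the 42 genes, 41 had such a probe set and Ccnb1 had none. A filter on dim probe sets, a mean signal of at least 69.7 over the 4 arrays, left 39 of them among 12891 tested genes. Cdc6, which loads the MCM helicase onto replication origins, and Tyms, thymidylate synthase, fell below the filter with mean signals of 40.4 and 59.5.

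All 4 samples came from marrow progenitors cultured for 7 days in medium that held 20% of an L-cell supernatant (L-cell conditioned medium), which supplies the macrophage growth factor M-CSF, and then plated overnight without it. Interferon-gamma, a cytokine that activates macrophages, was given to all of them overnight at 100 U/ml and washed off. The LPS group then received lipopolysaccharide at 10 ng/ml, a bacterial product sensed through TLR4, for 2 h. The other group received this dose of lipopolysaccharide together with immune complexes, which bind Fc gamma receptors, for the same time. The series compares these states as classical and type II activation and had no unprimed or unstimulated sample among the 4. Each group held 2 arrays, numbered replicate 1 and replicate 2 in the labels. Strain and age of the mice are not given in the sources used here. The labels also do not say whether replicates were separate cultures or animals, so the p-values rest on a spread between samples that may be technical only.

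A dividing cell duplicates its genome in S phase and separates the copies in mitosis. Origins are licensed when Cdc6 and Cdt1 load the MCM helicase, and geminin, the product of Gmnn, blocks Cdt1 afterwards. Cyclin E and E2F1 act at entry into S phase, while Cdk1 with cyclins A and B drives mitosis. Many of these genes are transcribed only in cycling cells, in waves controlled by E2F factors around S phase and by the DREAM and B-MYB complexes around mitosis. Macrophages grown from marrow divide in response to M-CSF and slow their division without it or when activated by lipopolysaccharide or interferon-gamma.

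Promoters of these genes are known for the CCAAT box, which binds NF-Y, for the CHR element of mitotic genes and for E2F sites. RefSeq promoter sequence of build GRCm38.p6 was at hand for 35 of the 42 members, in 37 windows, since Mcm7 and Prc1 each have 2 annotated starts whose windows can share bases. The 250 bases before each start were searched on both strands for CCAAT, for the CHR words TTTGAA and TTCGAA, and for the E2F words TTTCCCGC, TTTGGCGC, TTTCGCGC and TTTGCCGC. The 120 bases just before the start are printed here for 5 genes that stand for the shared pattern of the results, a mitotic cyclin, a topoisomerase, a mitotic exit activator, a helicase subunit and a reductase subunit. Birc5, the gene with the highest replicate difference, and Cdt1, the gene with the highest difference between stimulations, follow them. Sequences run 5′ to 3′ on the gene's strand, with matches to the searched words on either strand in capitals. The regions are chr9:70421555-70421674 on the minus strand for Ccnb2, chr11:99024190-99024309 on the minus strand for Top2a, chr4:118437344-118437463 on the minus strand for Cdc20, and chr5:138171884-138172003 on the minus strand for Mcm7. They are chr12:24708134-24708253 on the plus strand for Rrm2, chr11:117849117-117849236 on the plus strand for Birc5, and chr8:122567895-122568014 on the plus strand for Cdt1.
Ccnb2: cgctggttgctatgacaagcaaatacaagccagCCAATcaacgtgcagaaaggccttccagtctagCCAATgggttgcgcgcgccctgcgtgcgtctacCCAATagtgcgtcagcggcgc
Top2a: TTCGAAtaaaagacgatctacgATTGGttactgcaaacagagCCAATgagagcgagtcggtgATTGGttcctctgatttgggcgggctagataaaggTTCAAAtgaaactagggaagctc
Cdc20: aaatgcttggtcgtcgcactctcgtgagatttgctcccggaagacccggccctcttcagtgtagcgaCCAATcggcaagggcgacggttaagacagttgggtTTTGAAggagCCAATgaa
Mcm7: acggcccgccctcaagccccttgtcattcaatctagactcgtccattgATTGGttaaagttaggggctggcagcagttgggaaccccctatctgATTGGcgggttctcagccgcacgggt
Rrm2: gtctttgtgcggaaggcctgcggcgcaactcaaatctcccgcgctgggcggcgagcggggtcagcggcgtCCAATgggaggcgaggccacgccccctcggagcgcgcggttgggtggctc
Birc5: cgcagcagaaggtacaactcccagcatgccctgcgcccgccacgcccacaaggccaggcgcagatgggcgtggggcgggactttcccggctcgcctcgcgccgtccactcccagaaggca
Cdt1: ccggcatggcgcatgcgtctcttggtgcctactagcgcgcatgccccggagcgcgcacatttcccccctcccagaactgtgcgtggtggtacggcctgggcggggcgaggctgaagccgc

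Ccnb2 had CCAAT boxes that begin 87, 54 and 21 bases before the start, evenly spaced. Top2a had CCAAT boxes in both orientations together with CHR words, and Cdc20 had a CHR word that begins 18 bases before the start, between CCAAT boxes. In the windows of Birc5 and Cdt1 none of the searched words occurred, which says only that these letters are not in the windows. Across the 37 windows of the members, 28 (75.7%) held a CCAAT box, against 33.8% of all 32851 windows of this length in the table. A CHR word stood in 29.7% of the members' windows and in 17.1% of all windows, and an E2F word in 13.5% and 1.86%. A match is a description of the letters and was not tested as a binding site.

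**Figure D1:**
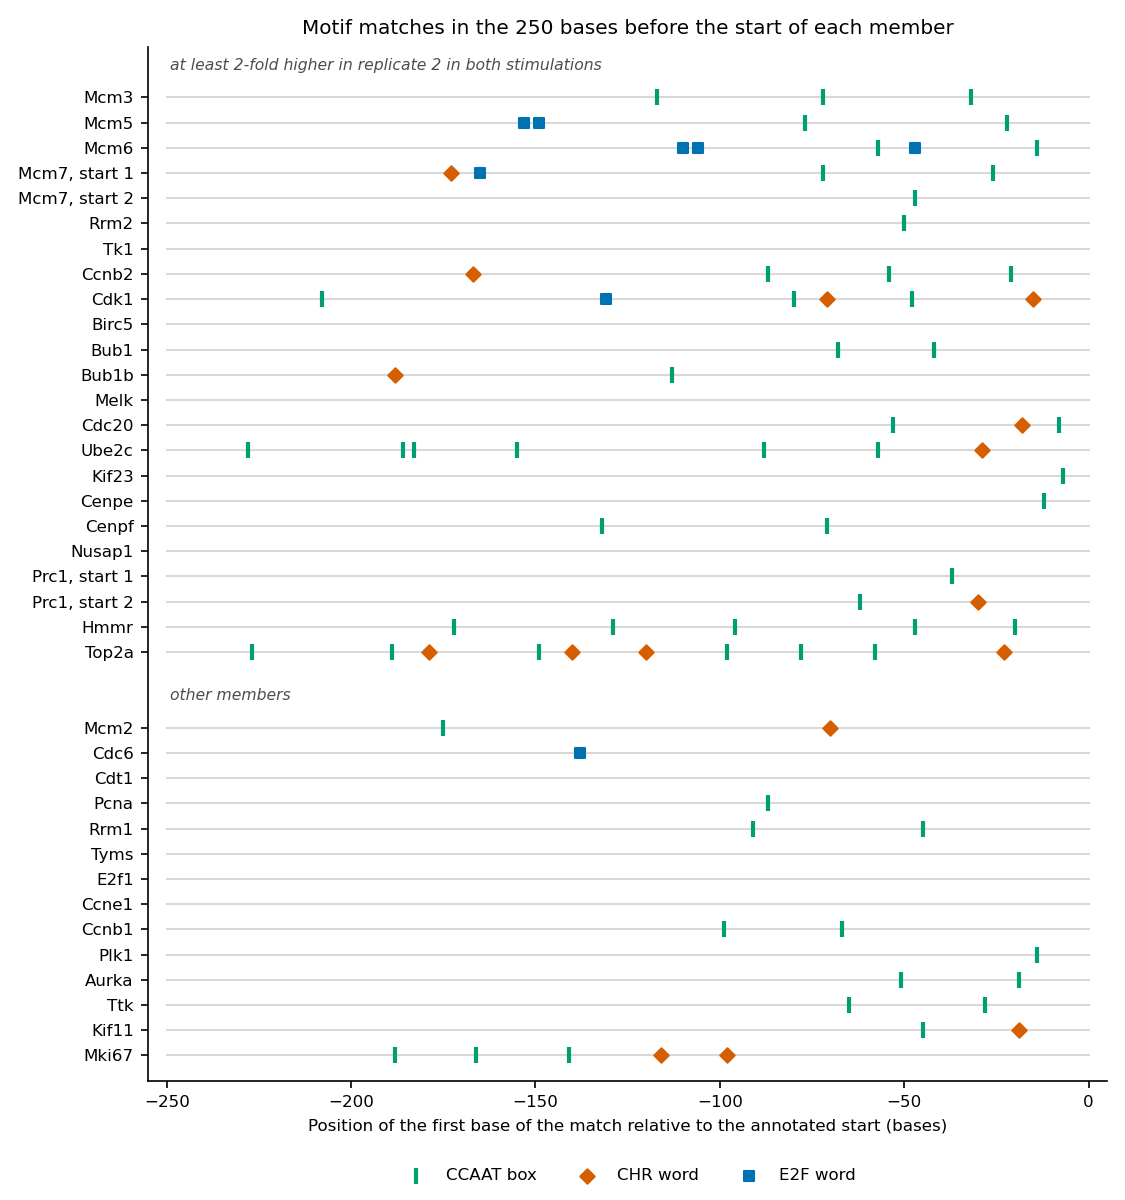
Each row is 1 promoter window of a replication or mitosis gene, and the x axis gives bases before the annotated start, at 0. Green bars are CCAAT boxes, orange diamonds CHR words and blue squares E2F words, and 28 of the 37 windows hold a CCAAT box.

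The arrays were scaled by the authors to the same trimmed mean of 500 but differed at low signals. Replicates 1 and 2 had median signals of 88.3 and 79.6 in the LPS group, and of 155.4 and 68.2 in the group with immune complexes. The first array with immune complexes therefore stands apart with raised low readings, and its 5th percentile was 28.1 against 3.3 to 7.9 on the other 3 arrays. All 10 macrophage markers, among them Cd68, Lyz2 and Mrc1, were on the array with readings from 729.7 to 46505.3. Their summed signal was 161824.6 and 200482.7 under LPS and 139310.2 and 162042.5 with immune complexes. Precision is limited by the number of arrays, 2 in each group.

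The strongest feature of the replication and mitosis genes was a difference between replicate numbers that appeared in both stimulations. Over the 39 tested members, replicates 1 and 2 had median signals of 136.5 and 682.4 in the LPS group, and of 252.3 and 759.7 in the group with immune complexes. The median of the members was thus low on both replicate 1 arrays and high on both replicate 2 arrays, though not every member had this order. The median member was 3.46-fold higher in replicate 2 than in replicate 1 with LPS, and 2.82-fold higher with immune complexes. The same medians over all 12891 tested genes were 1.04-fold and 0.928-fold. Fold differences here and below are taken between values of log2(signal + 32), so that they understate the ratio of dim signals, and a contrast of 1 array with 1 other has no test.

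At least 2-fold higher in replicate 2 were 29 of the 39 members with LPS, where 7.69% of all tested genes were, and 26 of 39 with immune complexes, where 5.27% were. Both limits were met by 24 members, or 61.5%, against 2.16% of all genes. Of these 24, 6 passed the filter on dim signals through their replicate 2 readings, since their replicate 1 mean was under 69.7. They were Bub1, Bub1b, Cenpe, Cenpf, Kif20a and Melk, and the filter thus favours a difference in them. Without a filter the count was 24 of the 41 members with a probe set, against 1.55% of all genes. It holds the same 24 genes with the same readings, so it cannot show how the filter bears on them. Among the genes tested with the filter, 278 met both limits, and the 24 made up 8.63% of these. With LPS no member was at least 2-fold lower in replicate 2, while 6.9% of all genes were. With immune complexes 1 member was, Ccne1, while 23.5% of all genes were. Each reading of replicate 2 lay above each reading of replicate 1 in 31 of the 39 members, and in 24.8% of all genes. In bulk samples, fewer cycling cells and less of these transcripts in each cell cannot be told apart.

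**Figure D2:**
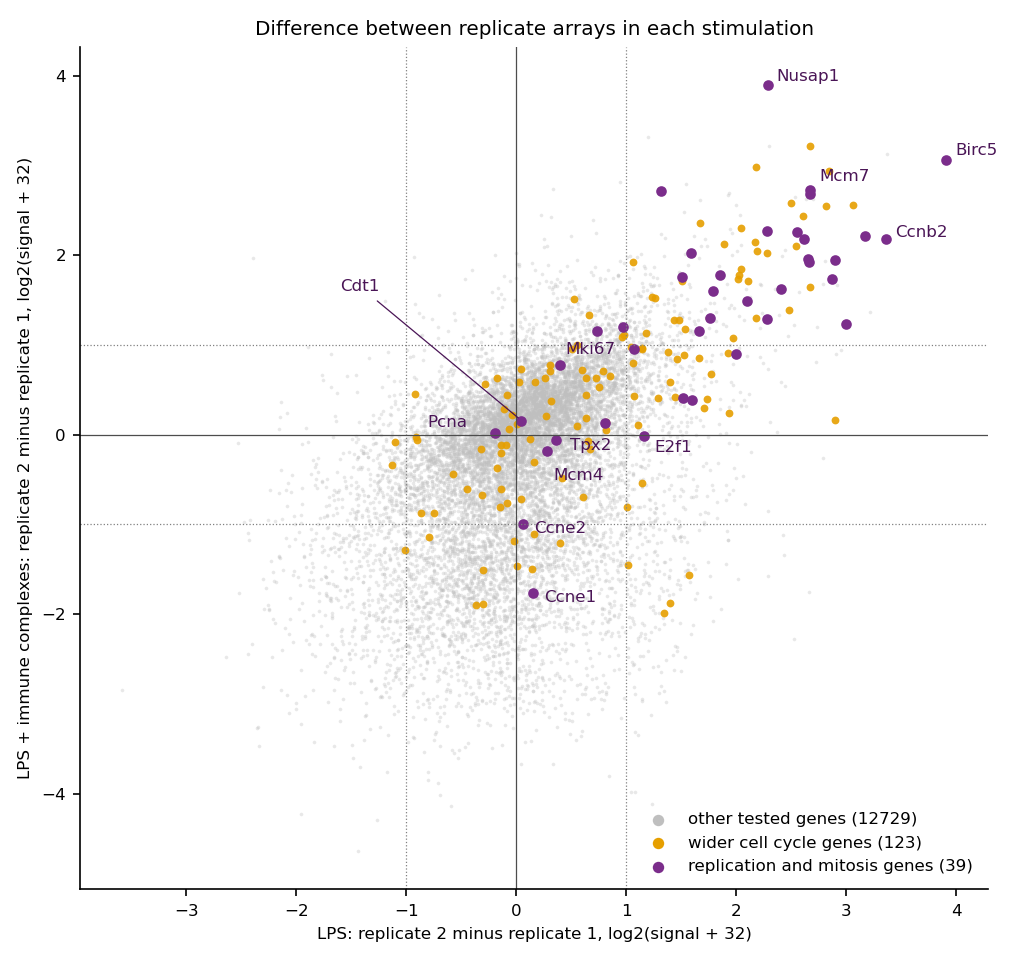
Each point is a tested gene, with the replicate 2 minus replicate 1 difference in log2(signal + 32) with LPS on the x axis and with LPS plus immune complexes on the y axis. Purple points are the 39 tested replication and mitosis genes, orange points 123 other cell cycle genes and grey points the remaining genes, and dotted lines mark 2-fold. Most purple points lie above 2-fold on both axes, while Cdt1, Pcna, Mcm4 and Tpx2 lie near 0 and Ccne1 and Ccne2 below 0 on the y axis.

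Mitotic cyclins and their kinase showed the difference in all 3 tested members. Cyclin A2, encoded by Ccna2, which acts from S phase into mitosis, read 69.1 and 880.9 under LPS and 139.2 and 761.2 with immune complexes in replicates 1 and 2. Cyclin B2, encoded by Ccnb2, which activates Cdk1 at the onset of mitosis, read 61.9 and 935.6 under LPS and 168.7 and 880.3 with immune complexes. Cdk1, the kinase itself, read 438.8 and 1309.9, then 330.7 and 1194.5. In all 3 genes the replicate 1 readings were low in either stimulation, and the replicate 2 readings did not overlap with them. The median difference of the group was 9.03-fold with LPS and 4.55-fold with immune complexes, the highest with LPS among the 8 groups of members by role.

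Among the 8 mitotic kinases and checkpoint genes, both replicate 2 readings were above both replicate 1 readings in all 8, and 5 of 8 passed 2-fold in both stimulations. Over all tested genes these shares were 24.8% and 2.16%. Of the 8, Bub1, Bub1b, Melk and Ttk passed the filter on dim signals through their replicate 2 readings, which favours a difference in them. Birc5, which encodes survivin, a subunit of the chromosomal passenger complex, read 68.3 and 1479.3 under LPS and 129.1 and 1316 with immune complexes. Its difference, 15.1-fold and 8.37-fold, was the highest of all 12891 tested genes when averaged over the stimulations. Bub1, a kinase of the spindle checkpoint, read 6.9 and 206.7 under LPS and 75.6 and 454.6 with immune complexes. Ttk, the checkpoint kinase Mps1, read 8.3 and 129, then 81.1 and 179.3, and its difference with immune complexes was 1.87-fold. The replicate 1 readings of Bub1 and Ttk with LPS are near the lowest signals of that array, whose 5th percentile was 7.9. On the first array with immune complexes, whose 5th percentile was 28.1, Melk read 25.1 and Nusap1 32.5. The ratios of these 4 genes rest on such low readings. The checkpoint gene Bub1b, the passenger kinase Aurkb and the kinase Melk also passed 2-fold in both stimulations. Aurka, the centrosomal kinase, was 3.03-fold higher in replicate 2 under LPS and 1.3-fold with immune complexes, and Plk1, Polo-like kinase, was 1.97-fold and 2.29-fold higher.

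The ubiquitin steps that end mitosis were represented by Cdc20 and Ube2c, which both passed 2-fold in both stimulations. Cdc20, the activator of the anaphase-promoting complex, read 106 and 999 under LPS and 305.9 and 1267.8 with immune complexes. Ube2c, the ubiquitin-conjugating enzyme of that complex, read 197.5 and 1408.7, then 249.5 and 1065.1. Replicate 2 was 6.28-fold higher for Ube2c with LPS and 3.9-fold higher with immune complexes.

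Of 9 genes of the spindle, kinetochore and midzone, 7 were at least 2-fold higher in replicate 2 in both stimulations, against 2.16% of all genes. Of these 7, Cenpe, Cenpf and Kif20a passed the filter on dim signals through their replicate 2 readings. Nusap1, a microtubule-bundling protein of the spindle, read 136.5 and 791.2 under LPS and 32.5 and 927.1 with immune complexes. Kif23, a kinesin of the central spindle needed for cytokinesis, read 73 and 808.2, then 264.8 and 666.3. Hmmr, a spindle-associated hyaluronan receptor, read 68.7 and 398.1, then 156.9 and 499.9. In these probe sets of the 3 genes every replicate 2 reading exceeded every replicate 1 reading. A dimmer probe set of Nusap1 did not show this order, at 45.1 and 46.4, then 215.7 and 34.3. The dimmest tested probe set of Hmmr was lower in replicate 2 in both stimulations, at 72.9 and 38.6, then 213.5 and 26. The other tested probe sets of Hmmr and Kif23 were higher in replicate 2 in both. The others of the 7 were the kinetochore genes Cenpe and Cenpf, the kinesin Kif20a and the midzone bundler Prc1, with differences from 2.44-fold to 6.33-fold. Second probe sets of Cenpe and Cenpf had log2 differences of 0.18 and 0.09 with LPS, and of -0.46 and -0.96 with immune complexes. That of Prc1 had 2.52 and 2.03. The exceptions were Kif11, the kinesin that pushes spindle poles apart, at 1.75-fold and 1.09-fold, and Tpx2, the activator of Aurora A. Tpx2 read 503.3 and 657.6 under LPS and 902 and 867.2 with immune complexes, so that in this probe set both readings with immune complexes were the higher ones.

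Genes of DNA replication were divided. Mcm7, a subunit of the MCM helicase, read 367.5 and 2520.9 under LPS and 346.2 and 2476.3 with immune complexes, which is 6.39-fold and 6.63-fold. Mcm3, Mcm5 and Mcm6, subunits of the same hexamer, also passed 2-fold in both stimulations, with differences from 2.23-fold to 4.06-fold, and Mcm2 passed with LPS alone (2.86-fold, and 1.33-fold with immune complexes). Mcm4, from the same hexamer, read 500.8 and 615.9, then 867.2 and 759.7, and did not show the difference. In their brightest probe sets the subunits of this 1 complex ranged from 0.88-fold to 6.63-fold between replicates. The range depends on the probe set, since a second Mcm4 probe set read 459.2 and 465.3, then 627.6 and 1000.5. No other Mcm3 probe set passed 2-fold in both stimulations, and the next brightest had log2 differences of 0.95 with LPS and 0.48 with immune complexes. A second Mcm5 probe set had 1.57 and 0.60, and a second Mcm6 probe set 1.77 and 2.57. The dimmest probe sets of Mcm5 and Mcm6 were lower in replicate 2 in both stimulations. The other 3 Mcm7 probe sets had log2 replicate differences from 1.01 to 2.77 with LPS and from 1.20 to 1.48 with immune complexes. Gmnn read 395.9 and 681.7 under LPS and 363.3 and 852 with immune complexes, a difference of 1.67-fold and 2.24-fold. Cdt1 did not differ by replicate number, at 1.03-fold and 1.12-fold.

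The next group held genes of the replication fork and of nucleotide supply. Rrm2, the S phase subunit of ribonucleotide reductase, read 212.3 and 1525.8 under LPS and 255.9 and 1816 with immune complexes. Its partner Rrm1, the larger subunit, was 2.1-fold and 1.94-fold higher in replicate 2, and thymidine kinase, Tk1, was 3.62-fold and 3.43-fold higher. A second Rrm1 probe set read 592.9 and 625.5 under LPS and 344.8 and 700.7 with immune complexes, so its replicates lay close together with LPS. Pcna, the sliding clamp of DNA polymerases, read 16717.3 and 14658.2 under LPS and 17090 and 17346.8 with immune complexes. These 4 readings are close to each other, and Pcna was the only tested member with a lower reading in replicate 2 than in replicate 1 with LPS.

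The 3 regulators of S phase entry departed from the rest. E2f1, a transcription factor for replication genes, read 175.2 and 430.8 under LPS and 340.3 and 336.5 with immune complexes, so replicate 2 was higher with LPS only. Ccne1, cyclin E1, read 159.6 and 181.6, then 385.7 and 90.8. Ccne2, cyclin E2, read 55.8 and 59.9, then 169.4 and 69.1. For both cyclins the highest reading was on the first array with immune complexes, the array with raised low signals, and its part in these readings was not tested.

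The chromosome and proliferation marker genes also differed from each other. Top2a, the topoisomerase that untangles sister chromosomes, read 401.1 and 2512.8 under LPS and 539.4 and 2702.9 with immune complexes. Mki67, which encodes the proliferation antigen Ki-67, read 5885 and 7779.4, then 3097.2 and 5333.8. The replicate 2 reading of Mki67 was 1.32-fold and 1.71-fold that of replicate 1, against 5.88-fold and 4.79-fold for Top2a.

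**Figure D3:**
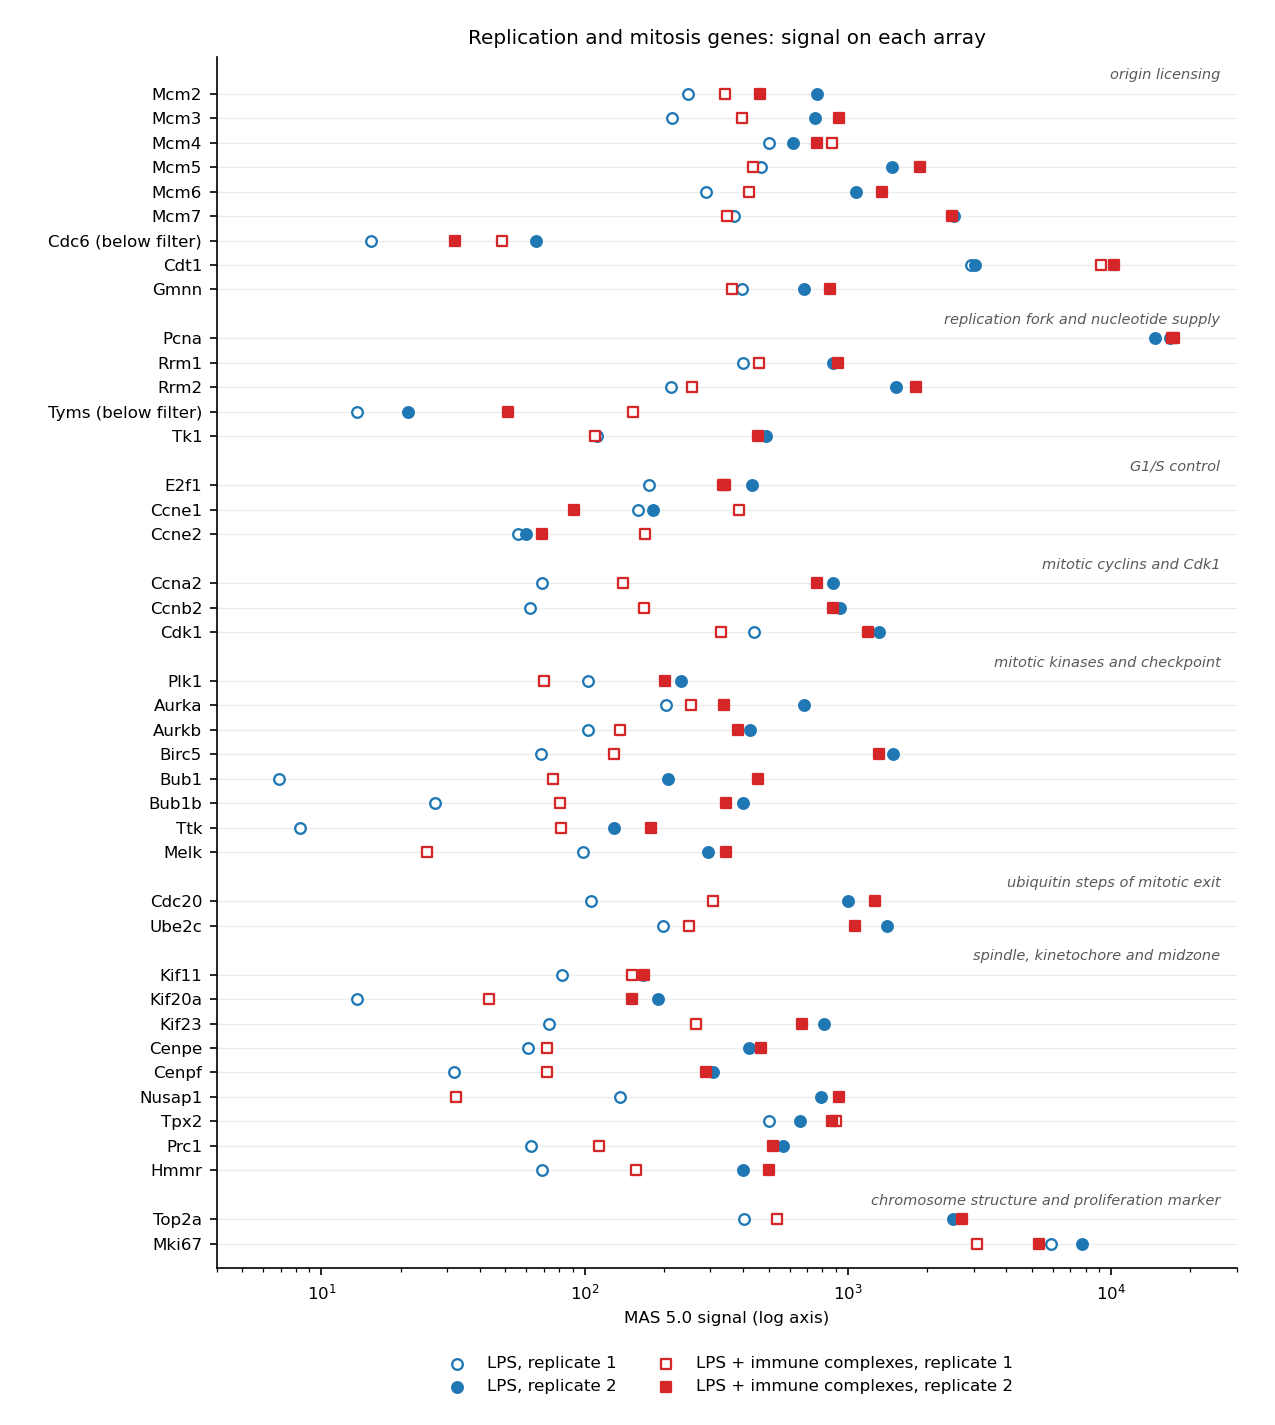
Each row is a replication or mitosis gene and each marker its signal on 1 array, on a log axis, with the 4 arrays told apart by marker and colour. The replicate 2 readings lie to the right of the replicate 1 readings in most rows, while the readings of Pcna lie together and those of Cdt1 split by stimulation, 2937.1 and 3034.8 against 9145.2 and 10208.4.

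Across the 39 members, the replicate differences in the 2 stimulations had the same sign in 33 genes, or 84.6%, and 66% of all genes had this. Pearson's r was 0.77 and Spearman's rho 0.77 over the members, and r was 0.41 over all 12891 genes. These values are across genes, which share the arrays and are not independent replicates. At least 4-fold in both stimulations were 9 members, Birc5, Bub1, Ccna2, Ccnb2, Cenpe, Mcm7, Nusap1, Rrm2 and Top2a. They made up 29% of the 31 tested genes that reached 4-fold, which are 0.24% of tested genes. Among the 9, Bub1 and Cenpe passed the filter on dim signals through their replicate 2 readings. The ratios of Bub1 and Nusap1 also rest on low replicate 1 readings.

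Other probe sets of the same genes gave the difference less uniformly. Of 35 dimmer tested probe sets, from 23 members, 23 were higher in replicate 2 in both stimulations and 11 by at least 2-fold. Among the 16 with a mean signal of at least 200, 14 were higher in both and 7 by at least 2-fold. Among the 19 under 200, 9 were higher in both, and 5 were at least 2-fold lower with immune complexes, where the first array has raised low readings. The other 2 probe sets of Rrm2 read 103.6, 701.7, 185.1 and 828.1, and 94.8, 416.5, 78.6 and 421.1, in the order LPS replicates 1 and 2, then immune complexes replicates 1 and 2. All 3 probe sets of Rrm2 thus had the same order of arrays by replicate number. The 3 other probe sets of Tpx2 disagreed with each other and with the brightest. The dimmest, at 48.8, 159.3, 38.6 and 171.5 in the same order, was higher in replicate 2 in both stimulations. The others read 254.6, 258.1, 421.4 and 153.8, and 152.7, 173, 295.3 and 153.1, highest on the first array with immune complexes.

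A wider list of 141 other cell cycle genes, of which 123 were tested, had the difference in part. The median was 1.72-fold with LPS and 1.44-fold with immune complexes, and 31 of 123 (25.2%) passed 2-fold in both. Over all tested genes the medians were 1.04-fold and 0.928-fold, and 2.16% passed 2-fold in both. The 58 mitotic genes of that list had medians of 2.73-fold and 2.14-fold, and 27 of them passed 2-fold in both. The 44 genes of replication and S phase had 1.55-fold and 1.16-fold, and 4 of them passed. The 21 regulators of the E2F and DREAM programmes had 0.938-fold and 0.943-fold, and 0 of 21 passed, which is close to the share of all genes. The largest differences were those of Smc4, a condensin subunit, at 298.8 and 2074.8 under LPS and 338.5 and 3421.1 with immune complexes. Uhrf1, which maintains DNA methylation at replication, read 62.6 and 647.2, then 24.8 and 403.7, and Ncapd2, another condensin subunit, read 38.5 and 556.5, then 62.2 and 522. Some wider genes that passed 2-fold in both had a replicate 1 mean under 69.7, and passed the filter through their replicate 2 readings. They were Anln, Cdc25b, Ect2, Gins2, Iqgap3, Kif2c, Kntc1, Ncapd2, Ncapg, Nek2, Nuf2, Pole, Spag5 and Uhrf1, and the filter favours a difference in them.

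Markers of other cells that a marrow culture can hold were low. The 8 markers of dividing myeloid progenitors, among them Kit, Cd34 and Mpo, summed to 714.5 and 458 with LPS and to 1139.6 and 472.9 with immune complexes. Of these 8, 4 passed the filter, and no reading exceeded 434.2. The highest sum was on the first array with immune complexes, the one with raised low readings, where other low lists were higher too. Erythroid markers summed to 813.7 there and 314.4 on the second such array, B cell markers to 969.1 and 390.4, and stromal markers to 1167.1 and 366. With LPS, where the progenitor sum was lower in replicate 2, these sums were 247.6 and 310.5, 431 and 504.5, and 413.3 and 425. The 4 tested progenitor markers had medians of 0.48-fold with LPS and 0.424-fold with immune complexes in replicate 2 over replicate 1. Kit and Ctsg were at least 2-fold lower in both, and Mpo was slightly higher. The sums for neutrophil markers were 959.2 and 933.6, then 1505.9 and 1468.7, with 6 of 8 markers on the array and no reading above 1137.6. Erythroid markers had no reading above 372.7, B cell markers none above 395, T and NK cell markers none above 94.2, dendritic cell markers none above 311, and stromal markers none above 335.8. Of the 10 macrophage markers, 6 were higher in replicate 2 in both stimulations, and 1, Mrc1, the mannose receptor, passed 2-fold. Mrc1 read 864.1 and 3660.2 under LPS and 846.4 and 3772.4 with immune complexes. Mertk, a receptor for the uptake of dying cells, had lower readings in replicate 2, at 8525.9 and 3206, then 3476.3 and 1857.9. Itgam, the integrin CD11b, read 1965.6 and 729.7, then 1358.3 and 1175.5. The macrophage markers thus lay on both sides. Ccnd1, cyclin D1, which links growth factor signals to the cell cycle, read 440.1 and 1792.5, then 580.4 and 1634.9, and was the only one of 17 tested genes of M-CSF and growth signalling to pass 2-fold in both. The 10 tested reference genes had medians of 0.885-fold and 0.946-fold, but single genes of this list differed by replicate number too. Tubb5, a tubulin, was 2.17-fold and 1.89-fold higher in replicate 2, and Ywhaz, a 14-3-3 protein, was at 0.498-fold and 0.514-fold. What the replicate number marks is not stated in the labels, and the part of any such source in the difference was not tested.

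The comparison that the study was built on, immune complexes with LPS against LPS alone, gave a smaller difference in these genes. In limma's moderated test with Benjamini-Hochberg adjustment over all probe sets, 0 of the 39 members were higher and 0 lower at an adjusted p under 0.05. Over all tested genes 0.0621%, 8 genes, were higher and 0% lower. At an unadjusted p under 0.05, 1 member was higher, Cdt1, and 0 were lower, against 1.99% and 1.14% of all genes. The median log2 difference of the members was 0.24, and that of all genes was 0.05. With quantile normalization these medians were -0.0018 and -0.03, and with median centring 0.05 and -0.15. On the deposited scaling 29 of 39 members were above 0, and 54.1% of all genes. The median member differed by 0.61 between the replicate 1 arrays and by 0.01 between the replicate 2 arrays, and all genes by 0.15 and -0.08. Leaving out 1 array leaves the replicate numbers unequal between the groups, and the members differ by replicate number. The median was then -0.88 and 1.28 without LPS replicates 1 and 2, and 1.12 and -0.50 without the first and the second array with immune complexes.

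Cdt1, the licensing factor that loads the MCM helicase, had the largest difference. It read 2937.1 and 3034.8 under LPS and 9145.2 and 10208.4 with immune complexes. All readings with immune complexes were above all those without, and replicates lay close together in both groups. The log2 difference was 1.68 ± 0.29 (SE, n = 2 arrays a group), or 3.21-fold, with a limma p of 8.99e-05 and an adjusted p of 0.09. With that adjusted p Cdt1 was not called. It ranked 17 of 12891 genes by p. In each of the 4 possible pairs of arrays its difference exceeded 2-fold, which held for no other member and for 0.783% of all genes. The opposite, a 2-fold lower reading in each pair, was found for 0 members and 0.186% of all genes. A second probe set of Cdt1 read 1234.8 and 963.3 under LPS and 3660.7 and 3355.7 with immune complexes. Its log2 difference was 1.66 ± 0.35 with a limma adjusted p of 0.211. The remaining probe set was dim, with no reading above 11.5. The call of Cdt1 depended on the arrays used, with limma adjusted p-values of 0.0198 without LPS replicate 1 and 0.00727 without LPS replicate 2, and of 0.87 and 0.213 without the first and the second array with immune complexes. In each of these fits 1 array stands for a group and is assumed to vary like the arrays of the other group. The log2 difference of Cdt1 lay between 1.49 and 1.78 over all alternatives run.

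Of the proteins that work with Cdt1 in licensing, Gmnn, its inhibitor, had a log2 difference of 0.10 ± 0.49, and the MCM genes Mcm2 to Mcm7 had differences from -0.13 to 0.54. None of them passed the test. Mcm4 had 0.52 ± 0.39 and its readings with immune complexes were above those with LPS.

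The readings of the 2 groups did not overlap in 6 members. Ccne2, Cdt1, Mcm4, Pcna and Tpx2 were higher with immune complexes, 12.8% of the members, close to the 13.2% of all genes. Mki67 alone was lower, 1 of 39, against 13.1% of all genes. Mki67 had a log2 difference of -0.73 ± 0.34 with a limma adjusted p of 1, and Ccne2 had 0.67 ± 0.79, Tpx2 0.59 ± 0.39 and Pcna 0.14 ± 0.24. The other largest differences were those of Bub1 (1.25 ± 0.93), Ttk (0.94 ± 0.90), Cdc20 (0.81 ± 0.82), Kif23 (0.62 ± 0.79) and Hmmr (0.61 ± 0.70), each with a limma adjusted p of 1. In these 5 genes the readings of the groups overlapped, and the standard errors ran from 0.70 to 0.93.

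**Figure D4:**
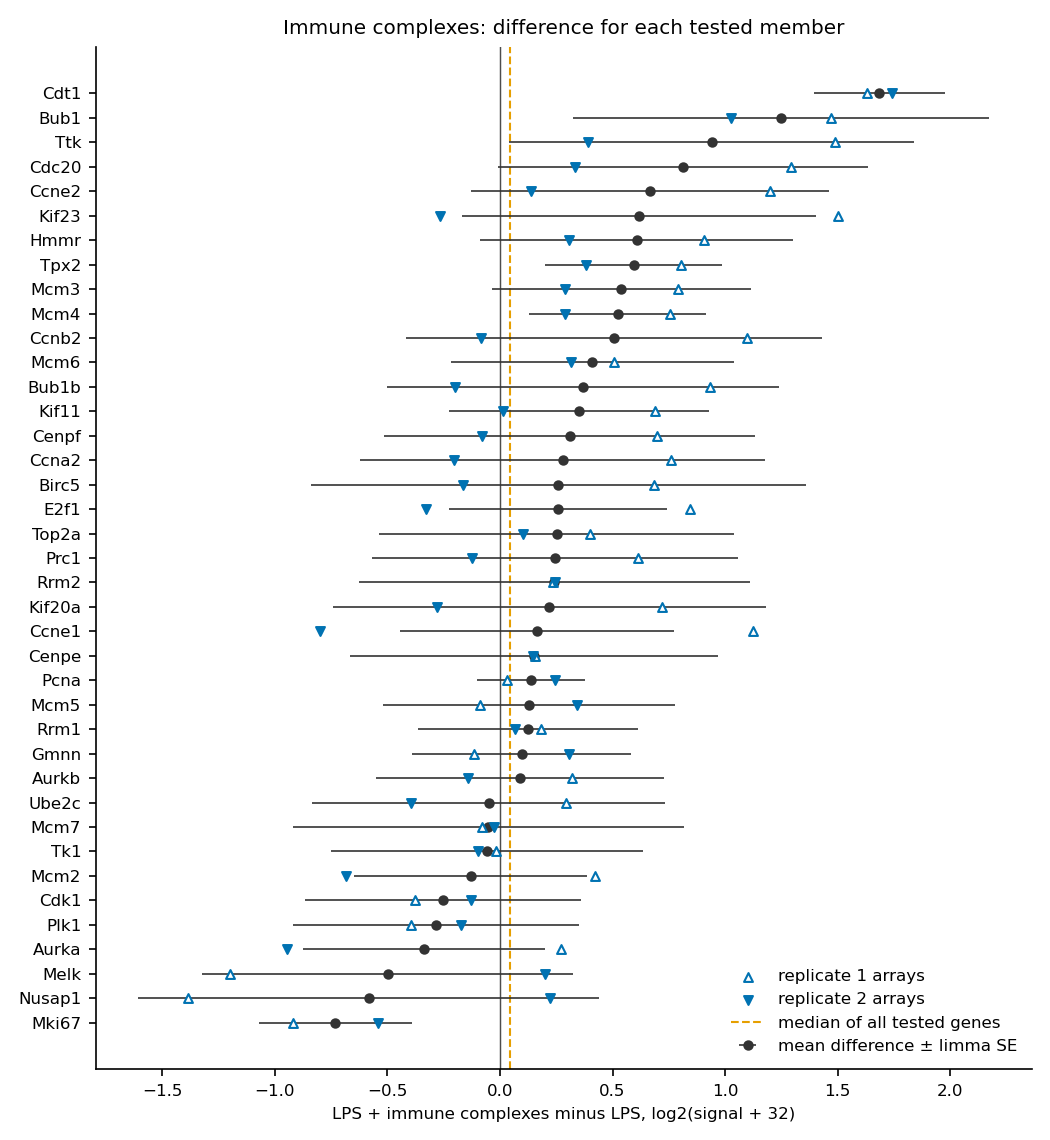
Each row is a tested replication or mitosis gene, and the x axis gives LPS plus immune complexes minus LPS in log2(signal + 32). The point is the mean difference with limma's standard error as a bar, and the small markers are the differences within replicate 1 and within replicate 2; the dashed line is the median of all tested genes, 0.05. Cdt1 stands apart at 1.68 ± 0.29, and Mki67 has the lowest value at -0.73 ± 0.34.

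By role, the median log2 difference with immune complexes was 0.27 for the 8 origin licensing genes, 0.13 for the 4 fork and nucleotide genes and 0.26 for the 3 regulators of S phase entry. It was 0.28 for the 3 mitotic cyclins and Cdk1, 0.17 for the 8 kinases and checkpoint genes and 0.31 for the 9 spindle genes. Cdc20 and Ube2c had a median of 0.38, and Top2a and Mki67 one of -0.24. No group had a called member. Of the 123 wider cell cycle genes 0 were called in either direction, with a median of 0.22. At an unadjusted limma p under 0.05, 4 (3.25%) were higher, Ccnf, Lin54, Rad51ap1 and Wdhd1, and 1 (0.813%) was lower, Bub3. Of all tested genes 1.99% were higher and 1.14% lower at this limit, so both shares are near those of all genes. Lin54, the DNA-binding subunit of DREAM, read 361.6 and 150.7 under LPS and 921 and 866.5 with immune complexes, with a limma adjusted p of 0.438. Cdc25c, the phosphatase that activates Cdk1, read 16.5 and 32, then 247.2 and 89.4. Rad51ap1, a recombination factor, read 49.4 and 48.5, then 344.1 and 133.8. In Cdc25c and Rad51ap1 the first array with immune complexes, the one with raised low signals, gave the highest reading, and its part in these differences was not tested.

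Promoter words were also set beside the replicate difference. Of the members at least 2-fold higher in replicate 2 in both stimulations, 23 windows of 21 genes were at hand, and 82.6% held a CCAAT box, 34.8% a CHR word and 17.4% an E2F word. In the 14 windows of the other members, untested ones included, the shares were 64.3%, 21.4% and 7.14%. With so few windows these shares are a description, and both groups were above the 33.8% of all windows for CCAAT.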

How the data were processed

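The authors deposited intensities on a linear scale, which are MAS 5.0 signals per the submitters' processing notes, for 45037 probe sets besides 64 controls on each array. Signals were transformed to log2(signal + 32). Of the probe sets other than controls, the 27022 with a mean at or over the 40th percentile (69.7) were tested. Groups and replicate numbers came from the sample titles. Genes were named from GEO's platform annotation, where 34945 probe sets name 1 gene, 932 several and 9160 none, and 34741 gene IDs matched RefSeq's table of GRCm38.p6. The annotation names no genome build for the probe sets, so no probe position is given. The stimulations were compared with limma 3.58.1 under R 4.3.3, using lmFit and eBayes with a variance trend, no block, a two-sided test and Benjamini-Hochberg adjustment over all tested probe sets. Replicate 2 was compared with replicate 1 within each stimulation by fold alone. The fit was also run on simulated data in which each array was drawn independently. No difference by replicate number was simulated, so this run cannot show how the fit handles one.

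Readings are given by rule for members past the threshold, the 8 with the largest difference in either comparison, the brightest member of each role group, and Mki67, Top2a, Pcna and Cdk1; and for the 3 wider genes with the largest difference in either comparison. A few further readings (Gmnn, Mcm4, Tpx2, Ccne1, Mertk, Itgam, Tubb5, Ywhaz and other probe sets) were chosen after their values were seen. The members and lists were chosen with earlier results of these data known. Alternatives were quantile normalization, median centring, pseudocounts of 1 and 100, other filters, other probe set choices, no variance trend, a replicate block, a 3-fold limit and leaving out each array.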

Additional observations from a re-analysis of the deposited data

How the results depend on the processing

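The count of members called for immune complexes, 0 of 39, became 1 without a filter and 1 with the mean of a gene's probe sets, in both cases Cdt1 (limma adjusted p of 0.00862 and 0.0409), and lay between 0 and 1 when each array was left out. Over all genes 8 were called, against 0 with quantile normalization, 25 with median centring, 13 and 3 with pseudocounts of 1 and 100, 49 without a filter, 2 with the 60th percentile as filter, 26 with the mean of probe sets, 5 without probe sets ending in _x_at or _s_at, 0 without the variance trend, and 0 to 61 when each array was left out. The replicate number as a block gave 391 genes (224 higher, 167 lower), 2 members (Cdt1 higher and Mki67 lower, limma adjusted p of 2.79e-15 and 0.01) and 4 of the wider list. Whether arrays with the same number share more than that number is not stated in the labels. Deviations from the group means correlated at 0.38 over 27022 probe sets for both numbers. With 2 arrays a group the values for the 2 numbers are forced to be equal, but not to be positive. Of the wider list 0 to 2 were called when each array was left out. The members' median log2 difference of 0.24 was -0.0018 with quantile normalization, and ran from -0.88 to 1.28 when each array was left out. Members at least 2-fold higher in replicate 2 numbered 26 to 31 under LPS and 18 to 29 with immune complexes over the scalings, pseudocounts, filters and probe set choices, and 16 to 27 in both. With a 3-fold limit 24 and 19 members passed in place of 29 and 26, and 19 wider genes passed in both in place of 31. The causes of these shifts were not tested. Median centring moved the median of all genes to -0.15 for immune complexes and to 0.30 for replicates with immune complexes, where the members' median was 1.90.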

Other observations

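Other genes shared the order of arrays seen in the replication and mitosis genes. Of the 20 genes with the largest replicate difference averaged over the stimulations, 8 were members, 7 were from the wider cell cycle list and 5 from neither. The 5 were chosen after their values were seen. Stmn1, which encodes the microtubule destabiliser stathmin, read 725.1 and 7812.8 under LPS and 819.7 and 7396.9 with immune complexes in replicates 1 and 2. Pclaf, a PCNA-associated factor, read 561.3 and 3654.5, then 492.4 and 3219.6. Knstrn, a kinetochore protein, read 120 and 716.3, then 38.1 and 620. S100a4, a calcium-binding protein, read 3923.1 and 25620.5, then 3495.4 and 21774.1, and Ldb1, a transcription cofactor, read 51.9 and 455.4, then 47.3 and 466.5. In all 5 genes the replicate 2 readings were higher in both stimulations. Both replicate 1 readings of Ldb1 were under the filter limit of 69.7, so it passed the filter through its replicate 2 readings.

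A probe set annotated to Tyms and its pseudogene together, and so left out of the members, read 170 and 331.1 under LPS and 241.7 and 335.8 with immune complexes. Of 14 histone genes looked for, 4 were tested. H2az2, a histone variant, read 950.9 and 2182.6 under LPS and 586.2 and 2207.2 with immune complexes, and passed 2-fold between replicates in both. The other tested ones did not. Replicate 2 over replicate 1 was 2.58-fold with LPS and 1.46-fold with immune complexes for H2ax. It was 1.27-fold and 1.55-fold for H2az1, and 0.737-fold and 1.16-fold for H1f2.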
